A study of Magallana hongkongensis with 2 samples.

Results

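The mitochondrial ribosomal proteins of the Hong Kong oyster gill were taken as the unigenes (assembled transcripts) whose description names a 39S or 28S ribosomal protein, or both a ribosomal protein and the mitochondrion. This rule found 68 of the 21226 unigenes listed in either library. The 39S name, or an L before the number where no such name was given, assigned 38 unigenes to the large subunit, and the 28S name or an S assigned 30 to the small subunit. They carry 59 protein names, 36 of the large and 23 of the small subunit. The rule used words only and no measured value.

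The study measured polyadenylated RNA from the gill of adult wild oysters (Crassostrea hongkongensis, also called Magallana hongkongensis), of undetermined sex, that were acclimated in the laboratory for 2 weeks and fed algae. One library, labelled control, came from oysters kept in seawater at 23 °C. The other, labelled heat shock, pooled 10 oysters that spent 1 h at 37 °C before their return to 23 °C. The number of oysters in the control library and the time of sampling after the return are not stated in the labels. Each group is a single library (1 per group), so every difference below is one between these libraries, and every interval covers counting error only.

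Mitochondrial ribosomes translate the few messenger RNAs of the mitochondrial genome, which in animals encode subunits of the respiratory chain and of ATP synthase. Their proteins are encoded in the nucleus, made in the cytosol and imported. The small subunit decodes the messenger RNA, and the large subunit joins the amino acids and releases the chain at the inner membrane. Some members descend from bacterial ribosomal proteins and others were added in the mitochondrion. Gill epithelium carries beating cilia and ion pumps, both of which consume ATP.

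The libraries held 3925349 and 4173215 uniquely mapped reads, control label first. Summed reads of heat shock protein transcripts went against the labels. The 111 unigenes of the heat shock list took 6.37% of the reads in the control-labelled library and 0.548% in the heat-labelled library. The libraries are therefore called by their labels only. The list was not uniform: by the 2-fold rule given below, 22 of its 92 tested unigenes were lower in the heat-labelled library and 5 higher. Among all tested unigenes, 3.25% were lower and 3.97% higher by that rule. The list had a median log2 ratio of -0.0099, with 45 of the 92 ratios over 1. Cilia markers, listed because gill epithelium carries beating cilia, took 1.11% and 1.34% of the reads, with 91 and 92 of their 93 unigenes detected. Of all 21226 unigenes, 20824 and 20751 were detected, so detection does not set a list apart here. Over every tested unigene, the log2 ratio (heat-shock over control label) had a median of 0.17 with library totals (a ratio of 1.12) and 0.0069 with edgeR's TMM factors. Values of the ribosomal proteins are to be read against that shift.

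The mitochondrial ribosomal proteins stood near the median level of all unigenes and far below the cytosolic ribosome. Together they took 2687 reads in the control-labelled library, or 0.0685% (exact binomial interval 0.0659 to 0.0711%), and 3283 reads in the heat-labelled library, or 0.0787% (0.0760 to 0.0814%). All 68 were detected in both libraries, as were 20349 of all 21226 unigenes. The members had 7 to 323 reads over both libraries, with a median of 74.5. Their level per length, as RPKM (reads per kilobase of unigene, scaled to the size of the library), had a median of 9.63 in the control-labelled library and 11.3 in the heat-labelled library, beside medians of 9.88 and 11.04 over all unigenes. The median member lay at percentile 50.3 of all unigenes by mean RPKM. Proteins of the cytosolic ribosome, which make all other proteins of the cell, stood far above them, with median levels of 971 and 999 RPKM over 90 unigenes. That is 100.8-fold and 88.7-fold the median of the mitochondrial members.

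**Figure D1:**
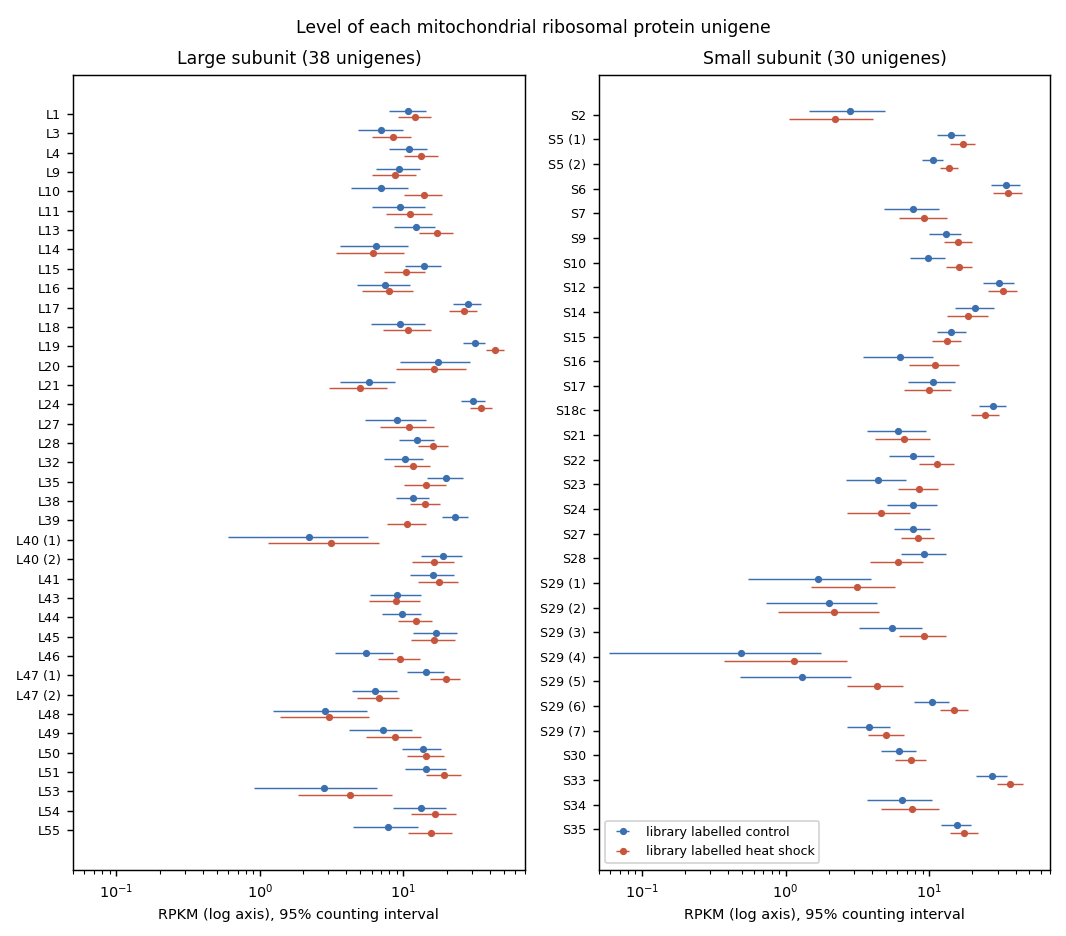
RPKM of each mitochondrial ribosomal protein unigene in the control-labelled library (blue) and the heat-labelled library (red), on a log axis, with exact Poisson 95% intervals. Proteins with several unigenes are numbered by increasing length. The highest value is 43.7 RPKM for L19 and the lowest 0.489 RPKM for one of the S29 unigenes.

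Levels within the large subunit spanned 2.22 to 31.3 RPKM in the control-labelled library and 3.02 to 43.7 RPKM in the heat-labelled library. The most abundant was L19, whose bacterial relative sits at the interface between the subunits (Unigene0022077, 1058 bases, 130 and 193 reads, 31.3 and 43.7 RPKM). L24, a relative of a bacterial protein that starts assembly of the large subunit, followed at 30.7 and 34.99 RPKM (Unigene0024154). L17 came next at 27.97 and 26.3 RPKM (Unigene0025628). In the control-labelled library the counting intervals of L19, L24 and L17 overlapped, so their order there was within counting error. In the heat-labelled library the interval of L19 (37.8 to 50.3 RPKM) lay above that of L17 (20.9 to 32.7 RPKM). The other large-subunit members among the highest were L47, L40 and L35, each with a unigene between 14.3 and 19.7 RPKM in both libraries.

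Levels within the small subunit spanned 0.489 to 34.3 RPKM and 1.15 to 36.9 RPKM. Its most abundant member in the control-labelled library was S6, a platform protein in bacteria (Unigene0029132, 34.3 and 35.5 RPKM). S12, which lies at the decoding centre and monitors the pairing of codon and anticodon in bacteria, stood at 30.9 and 32.5 RPKM (Unigene0028681). The mitochondria-specific S33 had 27.4 and 36.9 RPKM (Unigene0028106), and S18c, whose bacterial relative pairs with S6, had 27.9 and 24.7 RPKM (Unigene0024997). The intervals of these 4 overlapped in the control-labelled library. S14, a protein of the subunit head in bacteria, had 20.98 and 18.8 RPKM (Unigene0029431), and the mitochondria-specific S35 had 15.5 and 17.6 RPKM (Unigene0021557). The lowest levels of the subunit belonged to S29 unigenes and to S2 (Unigene0013365, 2.81 and 2.20 RPKM).

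Few members met the rule for a call between the libraries. A call needed 20 or more reads summed over the libraries, a difference of at least 2-fold, and an interval that did not include 1. Of the 62 members with enough reads, 1 was called higher and 1 lower in the heat-labelled library, and 60 neither. Over all 17364 unigenes with enough reads, 3.97% were called higher and 3.25% lower (690 and 564 unigenes; 406 and 758 with TMM factors, under which both member calls were also made). The 6 members under the minimum were L48, L53, 1 unigene of L40 and 3 of S29. The upper bound of the interval lay 1.26-fold to 3.03-fold above the ratio of a tested member, with a median of 1.59-fold.

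The member called lower was L39, a mitochondria-specific protein of the large subunit that in mammals resembles part of a threonyl-tRNA synthetase (Unigene0022913, 973 bases). It had 88 reads in the control-labelled library and 43 in the heat-labelled library, or 23.0 and 10.6 RPKM. The counting intervals of the levels did not overlap (18.5 to 28.4 and 7.66 to 14.3 RPKM). The ratio, control over heat-shock label, was 2.18 (95% interval 1.49 to 3.21). Reads covered 90.2% and 80.1% of its length. L39 was also the member with the smallest ratio and the 1 of 62 whose interval lay below 1, while 8 of 62 had an interval above 1. Over all tested unigenes, many of them more deeply read, 8.91% of intervals lay below and 23.0% above 1.

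The member called higher was a unigene of S29, also called DAP3, a GTP-binding protein of the small subunit that is named in human for its part in cell death. This unigene (Unigene0007205, 1167 bases) had 6 and 21 reads, which gives a ratio of 3.29 (1.29 to 9.97). S29 was spread over 7 unigenes with a summed length of 8132 bases; whether these are pieces, alleles or copies cannot be told apart here, and unique mapping can split reads among them. The most read of them, Unigene0020135, had 53 and 81 reads, with a ratio of 1.44 (1.004 to 2.07). Unigene0007206 had 35 and 49 reads, and Unigene0025118 had 17 and 30. The other 3 had 5 and 10, 6 and 7, and 2 and 5 reads (Unigene0025456, Unigene0011560, Unigene0022219). All 7 had more scaled reads in the heat-labelled library, except that Unigene0011560 turned below 1 with TMM factors or the median of ratios. Their summed reads were 124 and 203, a ratio of 1.54 (1.23 to 1.94), which is under the 2-fold rule, so S29 was not called as a protein.

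**Figure D2:**
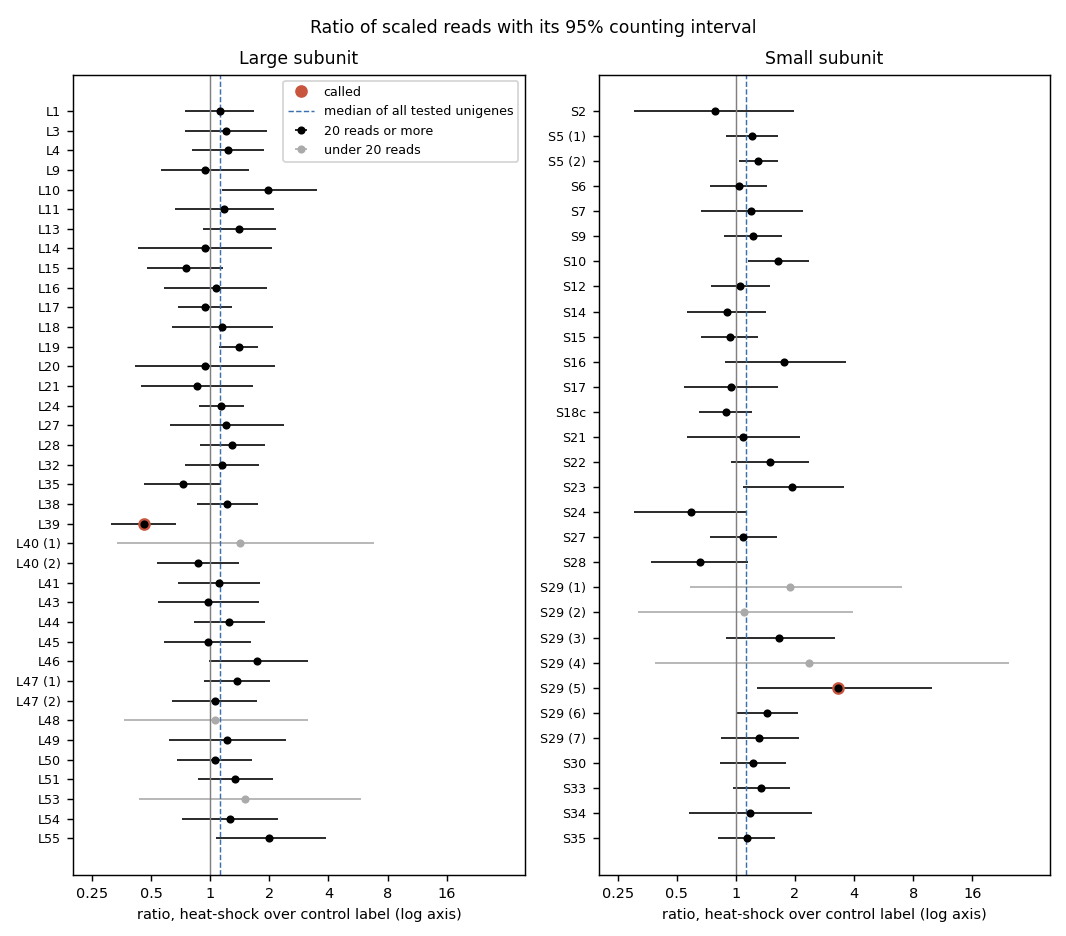
Ratio of reads per library total, heat-shock over control label, with its exact 95% interval for each member, on a log axis. Grey points have under 20 reads, larger red points mark calls, and the dashed line is the median of all tested unigenes (1.12). The intervals of L39 (ratio 0.460) and of the called S29 unigene (3.29) lie on opposite sides of 1.

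Several members lay below the 2-fold limit with an interval above 1. L55, a relative of bacterial L31 (Unigene0029257), had 16 and 34 reads, with a ratio of 1.999 (1.07 to 3.88). L10, which anchors the stalk that recruits translation factors (Unigene0025419), had 21 and 44 reads, with a ratio of 1.97 (1.15 to 3.49). The mitochondria-specific S23 (Unigene0021672) had 19 and 39 reads, with a ratio of 1.93 (1.09 to 3.54). S10, of the head of the small subunit (Unigene0019782), had 52 and 91 reads, with a ratio of 1.65 (1.16 to 2.36). With a 1.5-fold limit and the same interval, L10, L55, S10, S23 and the S29 unigene were higher, 5 of 62, and L39 alone was lower, against 10.7% and 5.71% of all tested unigenes. L19 had a ratio of 1.396 (1.11 to 1.76), with an interval above 1 but a smaller difference. Above the 1.12 of the median unigene lay 3 of 62 intervals, those of L10, S10 and the S29 unigene. Below it lay 1, that of L39. Of all 17364 tested unigenes, many of them more deeply read, 2095 had an interval above it and 2622 one below.

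In the large subunit, the members were also grouped by their place. At the stalk base, L11 had 24 and 30 reads (Unigene0027139, ratio 1.18, 0.664 to 2.10), beside the higher ratio of L10. At the exit of the peptide tunnel, L17 had 82 reads in each library (ratio 0.941, 0.684 to 1.29), and L24 had 104 and 126 (ratio 1.14, 0.872 to 1.49). L45, which holds the ribosome at the inner membrane in mammals, had 33 and 34 reads (Unigene0029597, ratio 0.969, 0.582 to 1.61). L47, a relative of bacterial L29, had 80 and 105 reads over its 2 unigenes (ratio 1.24, 0.914 to 1.67). None of these tunnel-exit intervals excluded 1, and their summed ratio was 1.09 (0.932 to 1.28).

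In the central protuberance, the crest of the large subunit, the summed ratio of 7 unigenes was 1.19 (0.964 to 1.46). L18, whose bacterial relative binds 5S ribosomal RNA, had 23 and 28 reads (Unigene0027500). L27, which reaches towards the peptidyl transferase centre in bacteria, had 18 and 23 (Unigene0029496), and the mitochondria-specific L38 had 57 and 74 (Unigene0020483). L46 had 20 and 37 reads, with a ratio of 1.74 (Unigene0023320, 0.984 to 3.16), the largest of the tested members of this place. L48 had 8 and 9 reads (Unigene0026096). L40 had 39 and 36 reads in its main unigene (Unigene0011679) and 4 and 6 in another (Unigene0011680). Every interval in this place held 1.

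Apart from L39, the smallest large-subunit ratios with at least 50 reads belonged to L35 and L15, relatives of bacterial large-subunit proteins. L35 had 48 and 37 reads (Unigene0027513, ratio 0.725, 0.459 to 1.14). L15 had 49 and 39 (Unigene0023694, ratio 0.749, 0.479 to 1.16). L13, an early-assembling protein in bacteria, lay on the other side with 39 and 58 reads (Unigene0024727, ratio 1.399, 0.916 to 2.16). All 3 intervals held 1.

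In the small subunit, the proteins that line the path of the messenger RNA had ratios on both sides of 1. S5, which lies near the messenger RNA entry in bacteria, had 134 and 185 reads in its longer unigene (Unigene0014575, 3230 bases) and 79 and 101 in its shorter one (Unigene0019308), together a ratio of 1.26 (1.05 to 1.52). S24, a relative of bacterial S3 at the entry, had 27 and 17 reads (Unigene0023913, ratio 0.592, 0.303 to 1.13). S28, a relative of bacterial S1, had 33 and 23 (Unigene0023650, ratio 0.656, 0.368 to 1.15). S24 and S28 had the smallest ratios of the tested small-subunit members, both with intervals that held 1. S7 of the head had 22 and 28 reads (Unigene0025898), and S12 of the decoding centre had 67 and 75 (ratio 1.05, 0.747 to 1.49; below 1 with each other scaling).

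The platform proteins differed little. S6 had 71 and 78 reads (ratio 1.03, 0.740 to 1.45; below 1 with each other scaling) and S18c had 87 and 82 (ratio 0.887, 0.648 to 1.21). S15, which organises the platform in bacteria, had 75 and 74 reads (Unigene0019808). Outside the platform, S14 of the subunit head had 42 and 40. Among mitochondria-specific members, S22 had 33 and 52 reads (Unigene0021704, ratio 1.48, 0.940 to 2.37), S33 had 63 and 90, and S35 had 68 and 82. All these intervals held 1.

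The large and the small subunit were then compared. The median log2 ratio was 0.19 over 35 tested large-subunit unigenes and 0.25 over 27 small-subunit unigenes, beside 0.17 over all tested unigenes. Ratios over 1 were found for 24 of the 35 and for 20 of the 27, where 66.1% of all tested unigenes had one. Summed reads of the large subunit were 1435 and 1708, a ratio of 1.12 (1.04 to 1.20), which came to 0.999 with TMM factors. Those of the small subunit were 1252 and 1575, a ratio of 1.18 (1.10 to 1.28), which came to 1.06 with TMM factors. The large subunit therefore held 53.4% of member reads in the control-labelled library (51.5 to 55.3%) and 52.0% in the heat-labelled library (50.3 to 53.7%). The large-to-small ratio of the summed ratios was 0.946 with a counting interval of 0.853 to 1.05, so a difference between the subunits was not detectable at this depth. Without the S29 unigenes, left out after their values were seen, the small-subunit median was 0.18, and the large-to-small ratio was 0.979 (0.879 to 1.09).

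**Figure D3:**
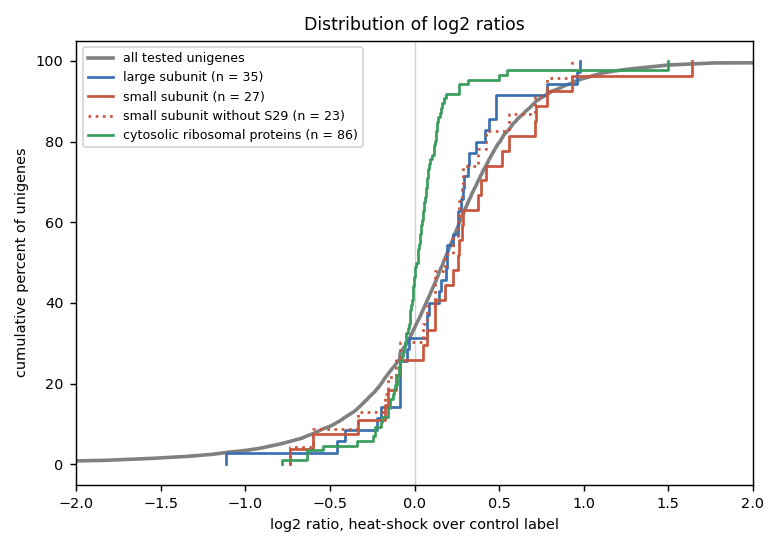
Cumulative percent of tested unigenes by log2 ratio, heat-shock over control label. The curves of the large (35) and the small (27) subunit run close to the grey curve of all tested unigenes, with medians of 0.19, 0.25 and 0.17, while the cytosolic ribosomal proteins (86) rise steeply around a median of 0.015.

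Levels per length were compared as well. The median was 10.5 RPKM for the large and 7.75 RPKM for the small subunit in the control-labelled library, and 12.1 and 9.59 RPKM in the heat-labelled library. Without the S29 unigenes the small-subunit medians were 9.89 and 11.4 RPKM. S30 is named as a small-subunit protein, but in mammalian structures it sits in the large subunit; its unigene had 51 and 66 reads (Unigene0016451). Counted as large, it brought the large-to-small ratio to 0.9501 (0.856 to 1.05).

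Members with bacterial relatives and mitochondria-specific members were also set side by side. Bacterial-type members were those whose L or S number is shared with a bacterial ribosomal protein, plus L47, L55, S24 and S28. The 39 bacterial-type unigenes, all tested and none called, had a median log2 ratio of 0.16, and the 23 tested mitochondria-specific unigenes had a median of 0.29 and held both calls. With TMM factors the medians were -0.0048 for the bacterial-type and 0.12 for the mitochondria-specific unigenes. The mitochondria-specific members were then divided by subunit, a division made after the values were seen. The 14 small-subunit unigenes had a summed ratio of 1.35 (1.19 to 1.53), and the 15 large-subunit unigenes one of 1.04 (0.913 to 1.17). Ratios were over 1 in 11 of 11 tested small-subunit unigenes, 4 of them S29, and in 8 of 12 large-subunit unigenes, where 66.1% of all tested unigenes had one. S30 was counted as small in this division. With TMM factors these counts were 10 of 11 and 6 of 12. The large-to-small ratio of these summed ratios was 0.766 (0.640 to 0.916). It came to 0.812 (0.666 to 0.990) without the S29 unigenes. Without L39 it was 0.862 (0.715 to 1.04), so leaving out 1 large-subunit unigene let the counting interval hold 1. With S29 and L39 both left out it was 0.914 (0.745 to 1.12). Among bacterial-type members the large-to-small ratio lay on the other side of 1, at 1.06 (0.932 to 1.20), and its interval held 1.

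Features of the members that the rule did not use were described as well. Most were short, with a median length of 806 bases against 1102 for all unigenes. Their median coverage by reads was 71.1% and 78.4% of the length in the 2 libraries, close to the 68.6% and 72.3% of all unigenes. The best protein match came from the Pacific oyster (Crassostrea gigas) for 45 of 68 and from the sea hare Aplysia californica for 10. A KEGG pathway was given for 1 member. The shares of such matches and pathways over all unigenes were not computed, so neither count marks a trait of the members.

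The rest of the mitochondrial expression machinery was followed in lists defined by words of the descriptions. None of the 6 translation factors was called. Elongation factor G, which moves the ribosome along the messenger RNA (Unigene0015607), had 220 and 204 reads, 22.6 and 19.7 RPKM. Elongation factor Tu, which delivers aminoacyl-tRNA (Unigene0018317), had 137 and 126 reads, 21.7 and 18.8 RPKM. The ribosome-recycling factor (Unigene0023242) had 35 and 37. The list median was 0.094 on the log2 scale.

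The mitochondrial aminoacyl-tRNA ligases, which charge tRNAs, had a median log2 ratio of 0.51 over 6 tested unigenes, with no call. The aspartyl enzyme had 45 and 73 reads (Unigene0017097, ratio 1.53, 1.04 to 2.26). Their median levels of 3.26 and 4.46 RPKM lay below those of the ribosomal proteins. The 10 tested unigenes for ribosome assembly and mitochondrial RNA had no call and a median of 0.16. Among them, a mitochondrial poly(A) RNA polymerase had 115 and 120 reads (Unigene0002679).

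**Figure D4:**
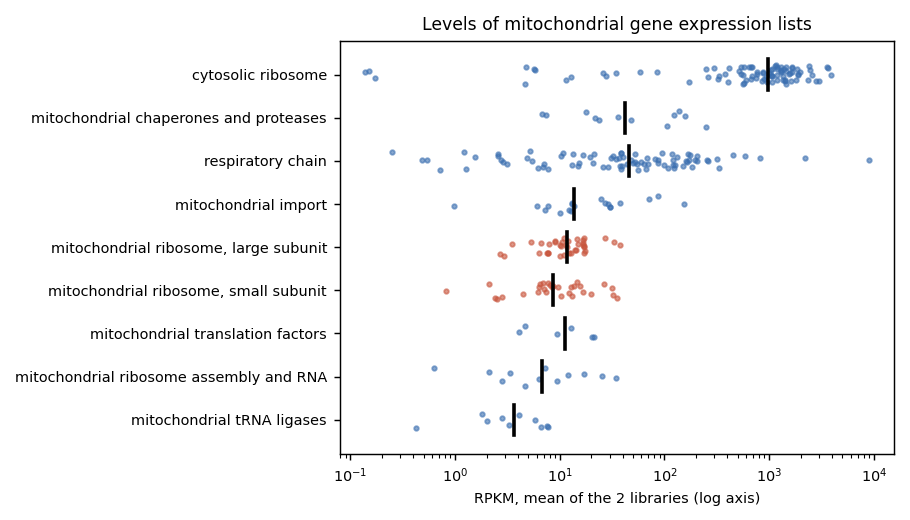
RPKM (mean of both libraries, log axis) of each unigene in the lists of mitochondrial gene expression and of the cytosolic ribosome; red points are the mitochondrial ribosomal proteins and black bars are medians. The mitochondrial ribosomal proteins lie near the translation and import lists, below the respiratory chain and far below the cytosolic ribosome.

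The respiratory chain list, which holds nuclear and mitochondrial genes, had 3 of 74 tested unigenes called higher, none lower and a median of 0.19, beside the 3.97% of all tested unigenes that were called higher. Its summed reads went slightly the other way, with a ratio of 0.987 (0.979 to 0.994). Its median levels were 42.0 and 50.4 RPKM, 4.36-fold and 4.47-fold those of the ribosomal proteins. The called unigenes were 2 described as NADH dehydrogenase (Unigene0014305, 107 and 277 reads; Unigene0018835, 25 and 60 reads) and an ATP synthase subunit a-like unigene (Unigene0001145, 31 and 68 reads). Of 18 tested import unigenes, TOM70, a receptor of the outer membrane, was called lower with 199 and 100 reads (Unigene0032070), and Tim22, of an inner membrane translocase, higher with 12 and 27 (Unigene0027482). The share of all tested unigenes called lower was 3.25%.

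Mitochondrial chaperones and proteases had 3 of 12 unigenes called lower and none higher. Stress-70 protein, the HSP70 of the mitochondrial matrix (Unigene0015332), was counted 3561 and 1613 times, a 2.35-fold higher scaled count under the control label (2.21 to 2.49). The other calls were unigenes described as a peroxisomal Lon protease, an enzyme of another organelle that matched the words (Unigene0023923, 275 and 59 reads; Unigene0024059, 128 and 36 reads). In the cytosolic ribosome 2 of 86 tested unigenes were called, both higher, L10 (Unigene0030451, 10 and 31 reads) and S15 (Unigene0011552, 6 and 19 reads). Its median log2 ratio was 0.015 and its summed ratio 1.001 (0.995 to 1.007), beside 1.15 (1.09 to 1.21) for all mitochondrial ribosomal proteins. With TMM factors the summed ratios came to 0.893 for the cytosolic ribosome and 1.03 for the mitochondrial ribosomal proteins.

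Markers of other tissues and of gill cilia were followed as well. Their calls stand beside 3.97% called higher and 3.25% called lower among all tested unigenes. The muscle list, mostly titin descriptions, took 0.357% and 0.404% of the reads, with 7 of 79 tested unigenes called higher and none lower, and 97 and 96 of its 97 unigenes detected. The haemocyte list took 0.227% and 0.241% (6 called higher and 1 lower of 69), with 86 and 88 of 91 detected; its words also caught disintegrins and integrin-binding proteins, which do not define haemocytes. The food-algae list, which held animal-type enzymes such as ribulose-phosphate epimerase too, took 0.0132% and 0.0138% over 10 unigenes, with 2 higher and 2 lower of 8 tested. The cilia list had a summed ratio of 1.21 (1.19 to 1.22), above that of the mitochondrial ribosomal proteins, with 1 of 84 tested unigenes called higher and 1 lower. The summed ratio was 1.13 (1.11 to 1.16) for the muscle list and 1.06 (1.03 to 1.09) for the haemocyte list. It was 1.04 (0.926 to 1.18) for the food-algae list. The median tested unigene had a ratio of 1.12, so only the cilia interval lay wholly above that shift. The part of cell composition in the summed ratio of the ribosomal proteins was not tested. In a bulk library, more cells of a type and more RNA per cell cannot be told apart.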

How the data were processed

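Per the file headers, the authors deposited, for each library, the count of uniquely mapped reads per unigene, its length, the share of it, in percent, that reads covered, an RPKM and a description from the best protein match. The submitters' processing notes name CASAVA 1.4 and cutadapt 1.8.1; the aligner, assembly and annotation were not given in the sources used here. The authors' deposited counts sum to the header total, and the deposited RPKM equals count over length and that total, to within a relative difference of 5.01e-15. Coverage in percent was used as a description. Unigenes listed in 1 file (at most 41 reads) were set to 0 in the other; a count of 0 allows up to 3 reads, 0.764 and 0.719 CPM.

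With 1 library per group, no p-value was computed. Ratios of reads per library total carry exact conditional binomial 95% intervals, levels exact Poisson intervals and shares exact Clopper-Pearson intervals (scipy 1.17.1); these cover counting error only, and PCR copies are not independent molecules. Log2 ratios use a prior count of 0.5. Calls need at least 20 reads, a ratio of at least 2 and an interval excluding 1; the rule was checked on simulated counts. Reads shared by near-identical copies are absent from unique counts.

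Named members are those called, the 8 largest and 8 smallest ratios with at least 50 reads, the 6 highest levels per subunit and members of listed places in the ribosome, plus up to 3 unigenes per other list; S2, S30 and the members under the minimum were named after their values were seen. The members and lists were chosen with earlier results of these data known. Alternatives were edgeR 4.0.16 TMM factors, DESeq2 1.42.0 median of ratios, totals without the heat shock list, other minimums, folds, intervals and priors, and sums per protein.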

Additional observations from a re-analysis of the deposited data

How the results depend on the processing

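No paired analysis was possible because each group has 1 library. Scaling shifted the medians and left both calls in place. The median log2 ratio of all members went from 0.21 to 0.049 with TMM factors, 0.046 with the median of ratios and 0.12 with totals that leave out the heat shock list. With TMM factors and the median of ratios it was 0.027 and 0.024 for the large subunit, 0.093 and 0.090 for the small subunit, -0.0048 and -0.0078 for bacterial-type members, and 0.12 and 0.12 for mitochondria-specific members. The ratio of summed reads was 1.03, 1.02 and 1.08 under the 3 scalings for all members, 0.999 and 0.997 under the first 2 for the large subunit, and 1.06 and 1.05 for the small subunit. Relative to the median of all unigenes, the members' median stood 0.040 higher with library totals and 0.042 higher with TMM factors; the share of all calls that were higher went from 55.02% to 34.9%.

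The count of members called higher was 1. It was 0 with a minimum of 100 reads, with reads summed per protein name, with a 4-fold limit, with the stricter interval and without the S29 unigenes, and 5 with a 1.5-fold limit. The count called lower (L39) was 0 with a 4-fold limit and 1 under the other alternatives. The large-subunit share, 53.4% and 52.0% of member reads, was 58.6% and 57.9% of summed RPKM, 41.5% and 40.2% among members with at least 100 reads, and 56.0% and 55.5% without S29. With S30 counted as large it was 54.0% in the heat-labelled library. The median of the large minus that of the small subunit was -0.065 and turned to 0.021 with a minimum of 100 reads, 0.010 summed per protein name and 0.0092 without S29. Leaving out S29, S30 counted as large and the removal of unigenes under 500 bases were chosen after seeing the data. Depth limits single members: their intervals span 1.26-fold to 3.03-fold above the ratio.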

Other observations

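Components of the mitochondrial ribosome known from mammals under other names fell outside the rule and were looked up after the data were seen. The first of them below was already in the list for ribosome assembly and mitochondrial RNA. Pentatricopeptide repeat domain 3, a protein of the small subunit at the messenger RNA entry (Unigene0016612, 2045 bases), had 137 reads in the control-labelled library and 148 in the heat-labelled library, 17.1 and 17.3 RPKM, a ratio of 1.02 (0.800 to 1.29). Coiled-coil-helix-coiled-coil-helix domain-containing protein 1, also of the small subunit (Unigene0033226), had 28 and 40 reads, with a ratio of 1.34 (0.809 to 2.26). The growth arrest and DNA damage-inducible proteins-interacting protein 1-like unigene, whose mammalian relative sits in the large subunit (Unigene0022273), had 45 and 66 reads, with a ratio of 1.38 (0.930 to 2.06). A unigene described as 30S ribosomal protein S11 (Unigene0025915) had 30 and 42 reads, with a ratio of 1.32 (0.805 to 2.18). The 4 intervals held 1, and the levels, between 10.6 and 18.3 RPKM, lay within the range of the members. A unigene described as 50S ribosomal protein L20-like (Unigene0033296, 215 bases), found in the same search, had 2 and 2 reads, too few for a call.

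OXA1L, the insertase that receives new chains from the mitochondrial tunnel exit (Unigene0018700), had 115 and 183 reads, 19.2 and 28.8 RPKM. Its ratio was 1.497 (1.18 to 1.91), with an interval above 1 and above the 1.12 of the median unigene, and under the 2-fold rule. It was chosen after its values were seen.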
